A study of Mus musculus with 18 samples.

Results

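Adult binucleated cardiomyocytes were compared with binucleated cardiomyocytes of postnatal day 7 (P7), heart muscle cells that carry 2 nuclei. The libraries were chosen by the age and the number of nuclei in their labels: 3 adult and 3 P7 libraries, 6 of the 18 in the series, each listing the same 12048 genes. All listed genes were tested. The series sorted mononucleated and binucleated cardiomyocytes of mouse hearts at E18.5, at P7 and in the adult, to set the classes side by side in their capacity to divide. All 18 libraries, of both ages compared here and of the P7 and adult mononucleated and E18.5 binucleated cells used for reference, came from Mlc2vcre:R26REYFP mice. In these mice Cre is expressed from the gene of the ventricular myosin light chain 2 (Mlc2v, now Myl2) and switches on a yellow fluorescent protein, so the reporter marks mainly ventricular muscle cells. No treatment differed between the groups. The labels give neither the adult age in weeks, nor the sex, nor how many hearts went into a library.

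Mouse cardiomyocytes divide until birth, pass through a last round of DNA synthesis without completing cytokinesis in the first postnatal week, and so become binucleated. During the following weeks they mature: fetal protein isoforms give way to adult ones, contraction and calcium release are organised along T-tubules, and fuel use settles on fatty acids, with glucose, ketone bodies and amino acids as further substrates. P7 cells are therefore newly binucleated and adult cells long settled, and the comparison asks which transcripts separate them.

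The libraries held 16214426 to 19688424 counts at P7 and 17644666 to 20278587 in the adult. Values are given as normalised counts (reads of a gene times the library factor held in the deposited values, which does not bring the libraries to one total) and as the log2 difference adult minus P7 with its standard error (SE). A gene was called when its adjusted p in limma (Benjamini-Hochberg over all genes) was under 0.05. Markers of ventricular cardiomyocytes (11 genes, among them Myl2 and Ttn) made up 5.44% to 5.91% of counts at P7 and 5.32% to 5.39% in the adult. Endothelial markers (16 genes) made up 0.00237% to 0.00238% at P7 and 0.0131% to 0.0163% in the adult, and leukocyte markers (8 genes) 0.000265% to 0.000512% and 0.00122% to 0.00164%. Pericyte and smooth muscle markers (10 genes, some of them also made by cardiomyocytes) made up 0.291% to 0.32% at P7 and 0.284% to 0.29% in the adult. Because of that overlap, this share does not measure pericytes and smooth muscle alone. Atrial, conduction, fibroblast and erythroid markers summed to lower shares in all 3 adult libraries than in all 3 P7 libraries. The fibroblast sum went against most members of its list. Of these 11 markers 8 had a log2 difference above 0 and 3 below, with a median of 0.82. In bulk RNA, fewer cells of a type and less RNA per cell cannot be told apart.

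**Figure D1:**
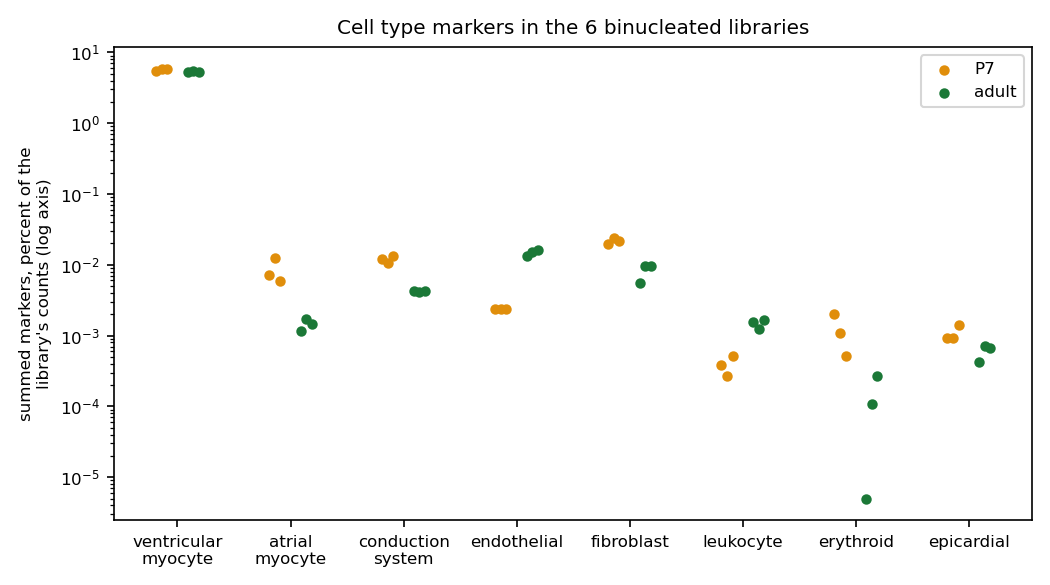
Summed counts of each cell type's marker genes as a percent of the library's counts (log axis), 1 point per library, for P7 (orange) and adult (green) binucleated cardiomyocytes. Ventricular markers lie above 5% in all 6 libraries, and all other lists shown lie below 0.03%, with endothelial and leukocyte markers higher in the 3 adult libraries. The pericyte and smooth muscle list is not shown.

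Of the 12048 genes, 4461 (37%) were called: 2086 (17.3%) rose and 2375 (19.7%) fell from P7 to the adult. The 3 values per age did not overlap in 7369 genes (61.2%), and 4410 of the called genes were among them. The median rise among called genes was 2.0-fold and the median fall 2.5-fold. Changes of at least 1 on the log2 scale numbered 1046 upward and 1478 downward. Scaling to library totals, tried after the data were seen, moved the median of all genes from -0.03 to -0.25 and gave 1416 higher against 3467 lower calls, 29.0% higher in place of 46.8%. Changes below are relative to the deposited scaling, and a sign change of a printed list median under another scaling is given beside it. E18.5 binucleated replicate 1, a library outside the comparison that enters the estimate of spread, stood apart from the other libraries of its group (r 0.884 and 0.896 with them, 0.964 between them).

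**Figure D2:**
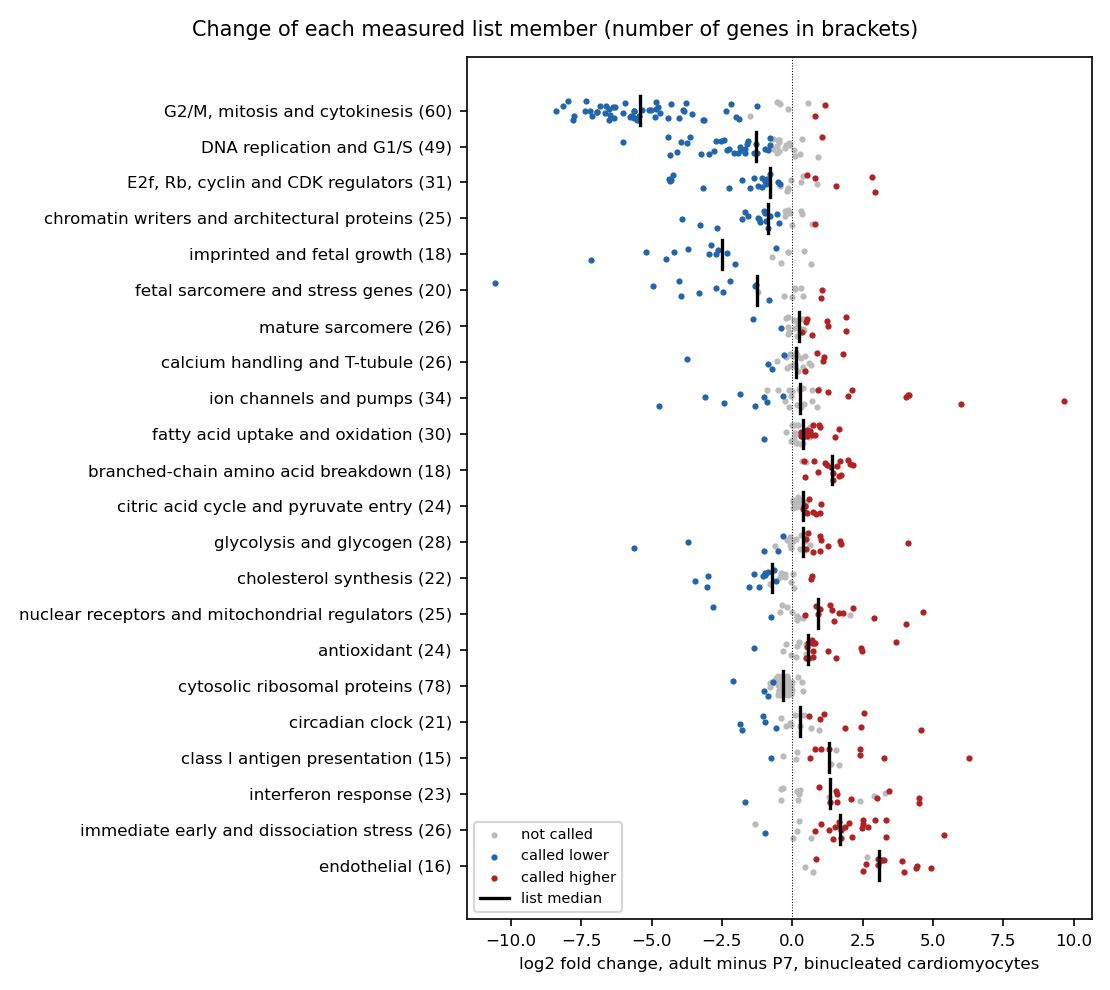
Log2 fold change (adult minus P7) of each measured gene in 22 lists, with called genes in red (higher) or blue (lower), other genes in grey and a black bar at the list median. The lists of mitosis and DNA replication lie mostly to the left of 0, and those of branched-chain amino acid breakdown, antioxidant enzymes and immediate early genes mostly to the right.

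Most mitotic genes fell. Of 60 measured genes of G2/M, mitosis and cytokinesis, 52 fell and 2 rose, and the list median was -5.40 beside -0.03 over all genes. Ccna2, the cyclin of S and G2 phase, stood at 670, 761 and 547 normalised counts at P7 and 4.04, 3.42 and 7.86 in the adult. Its log2 difference was -6.94 (SE 0.31), a 123-fold lower level, with an adjusted p of 1.51e-10 in limma. Ccnb2, an activator of the mitotic kinase, went from 448, 591 and 333 normalised counts to 1.01, 1.14 and 2.95. All 3 P7 libraries lay far above all 3 adult libraries for both cyclins. Top2a, which untangles sister chromatids, fell 80.1-fold (683, 616 and 573 against 8.09, 6.84 and 6.88 normalised counts), and the spindle assembly factor Tpx2 fell 48.8-fold. Cep55, required for the final cut between daughter cells, had 465 reads in the P7 libraries and 0 in the adult ones, which with a floor of 3 counts over the group is at least 143-fold lower.

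A pair of genes in the mitotic list went the other way. Cenpf, a large coiled-coil protein of kinetochores that also sits at the nuclear envelope, rose 2.25-fold, from 395, 343 and 353 to 743, 922 and 796 normalised counts (adjusted p 1.32e-05 in limma). Sgo2a, a protector of centromeric cohesion, rose 1.74-fold, from 140, 96.6 and 100.2 to 165, 217 and 200 normalised counts. The ages did not overlap in either gene, and the Sgo2a call was lost without P7 replicate 2 or 3 or adult replicate 2 or 3 (adjusted p 0.0508 to 0.0693 in limma) and under scaling to totals (0.0696). Both had been lower at P7 than at E18.5, Cenpf by a log2 difference of -2.84 and Sgo2a by -1.98. That comparison uses the same P7 libraries, so a low P7 value enters both.

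Many mitotic genes are switched off in resting cells through a short promoter element, the cell cycle genes homology region, which is bound by a repressor complex named DREAM. Promoter windows of 300 bases (250 before to 50 after the annotated start; RefSeq, GRCm38.p6) were available for 9376 of the measured genes. The letters TTTGAA, searched on both strands, occurred in 35 of the 50 mitotic genes with a window (70%) and in 14.1% of all measured genes with one. Stretches of 4 windows show the match in capitals, which reads TTCAAA where it lies on the other strand. Top2a and Ccnb2 hold a further match outside the stretch shown. The stretches lie at chr10:69352903-69352992 (minus strand) for Cdk1, chr11:99024180-99024259 (minus) for Top2a, chr2:164769859-164769938 (plus) for Ube2c and chr9:70421535-70421624 (minus) for Ccnb2.
Cdk1: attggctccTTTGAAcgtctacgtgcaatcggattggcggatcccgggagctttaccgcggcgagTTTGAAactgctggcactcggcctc
Top2a: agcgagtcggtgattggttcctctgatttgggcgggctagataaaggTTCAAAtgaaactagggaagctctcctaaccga
Ube2c: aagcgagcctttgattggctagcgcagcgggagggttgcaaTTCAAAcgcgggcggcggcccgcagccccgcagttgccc
Ccnb2: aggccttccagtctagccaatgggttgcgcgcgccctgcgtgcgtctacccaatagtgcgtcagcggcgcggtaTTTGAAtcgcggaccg
The first matching base lay at -71 and -15 from the start in Cdk1, the mitotic kinase, at -23 in the Top2a stretch, at -29 in Ube2c, the ubiquitin-conjugating enzyme of mitotic exit, and at 5 in the Ccnb2 stretch. Cdk1 stood at 411, 390 and 379 normalised counts at P7 and at 3.03, 20.5 and 11.8 in the adult, and Ube2c fell 34.3-fold. A match describes the letters only.

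Genes of DNA replication and entry into S phase fell less far. Of 49, 30 fell and 1 rose, with a median of -1.28. Mcm6, a subunit of the replicative helicase, stood at 763, 480 and 886 normalised counts at P7 and at 35.4, 38.8 and 45.2 in the adult, 17.1-fold lower (log2 difference -4.10, SE 0.29, adjusted p 1.83e-08 in limma). Rrm2, which makes deoxynucleotides, went from 1438, 1391 and 1575 to 121.3, 87.8 and 118 normalised counts, with no overlap and 13.5-fold lower. Prim1, the primase, fell 15.3-fold, and Chaf1b, a chaperone that puts histones on new DNA, fell 65.2-fold. Pcna, the sliding clamp, had a log2 difference of -0.54 (SE 0.22) that did not pass (adjusted p 0.0641 in limma), with 705, 748 and 762 normalised counts at P7 and 477, 552 and 501 in the adult. It was called with the 6 libraries alone (adjusted p 0.0032 in limma) and without E18.5 binucleated replicate 1 (0.0279). Gmnn, the inhibitor of replication licensing, was the only member that rose, from 937, 835 and 908 to 2022, 1787 and 1732 normalised counts, 2.06-fold.

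E2F factors drive S phase genes through sites read here in the forms TTTGGCGC and TTTCCCGC on both strands. They occurred in 15% and 17.5% of the 40 replication genes with a window and in 1.12% and 2.46% of all measured genes with one. The helicase genes and Cdc6, a licensing factor, are shown for where the sites lie; capitals mark the match. They lie at chr1:128359726-128359825 (minus) for Mcm6, chr8:75109339-75109418 (plus) for Mcm5 and chr11:98907991-98908070 (plus) for Cdc6.
Mcm6: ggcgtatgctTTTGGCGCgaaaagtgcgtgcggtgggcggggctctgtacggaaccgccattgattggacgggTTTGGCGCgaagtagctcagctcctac
Mcm5: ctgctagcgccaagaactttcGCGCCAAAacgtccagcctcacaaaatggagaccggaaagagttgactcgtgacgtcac
Cdc6: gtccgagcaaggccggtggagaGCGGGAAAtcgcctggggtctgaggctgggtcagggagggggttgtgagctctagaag
Mcm5 stood at 402, 273 and 489 normalised counts at P7 and 78.8, 60.4 and 39.3 in the adult. Cdc6 stood at 70.8, 27.6 and 67.5 normalised counts at P7 and at 5.05, 4.56 and 0 in the adult. Neither gene's ages overlapped.

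Regulators of the cycle fell more often than they rose. Of 31 E2F, Rb, cyclin and CDK genes, 18 fell (58.1%, beside 19.7% of all genes). The 5 that rose (16.1%) were near the share of all genes (17.3%). E2f1, an activating E2F, fell 19.9-fold (167, 143 and 251 against 9.10, 10.3 and 6.88 normalised counts), and Cdk2, the S phase kinase, fell 3.41-fold. E2f6, a repressing E2F, rose 1.75-fold, and Tfdp2, a dimerisation partner of E2Fs, rose 2.95-fold. Ccnd1, a growth-factor-induced G1 cyclin, rose 7.19-fold, from 15.5, 7.43 and 9.64 to 135, 62.7 and 55.0 normalised counts, while Cdk2 and E2f1 fell. Myc, an immediate early growth gene, went from 178, 93.4 and 65.6 to 345, 1488 and 956 normalised counts, with the first adult library well below the other adult libraries and above all P7 ones. Both rose beside the immediate early list described below, and its part in them was not tested.

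Among 25 chromatin writers and architectural proteins, 16 fell and 1 rose. The maintenance methylation factor Uhrf1 fell 15.0-fold (142, 132 and 246 against 8.09, 12.5 and 11.8 normalised counts), and Tet1, an oxidase of methylcytosine, fell 6.43-fold. Ezh2, the proliferation-linked H3K27 methyltransferase, fell 3.45-fold, and its paralog Ezh1 rose 1.76-fold (adjusted p 0.0391 in limma, 0.0621 to 0.117 without any 1 of the libraries other than adult replicate 1, and 0.0549 and 0.156 under quantile scaling and scaling to totals). In the nuclear lamina list 2 of 12 genes (16.7%) fell and none rose, not above the 19.7% that fell among all genes. They were Lmnb1 (lamin B1), 5.72-fold, and Tmpo (thymopoietin), 2.49-fold. Lmna stood at 2767, 2892 and 3428 normalised counts at P7 and 3292, 3365 and 3806 in the adult, which overlap.

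The fall with the highest fold among genes of at least moderate level was that of a sarcomere gene. Tnni1, the slow skeletal troponin I of the fetal heart, stood at 26960, 28279 and 27413 normalised counts at P7 and at 12.1, 15.96 and 28.5 in the adult. The log2 difference was -10.56 (SE 0.35), 1510-fold, with an adjusted p of 9.99e-12 in limma. Between E18.5 and P7 its difference was -0.70, and -0.42 without E18.5 binucleated replicate 1. Tnni3, the adult cardiac troponin I, stood at 43047, 43659 and 42934 normalised counts at P7 and at 56372, 60166 and 52400 in the adult. That difference of 0.38 (SE 0.19) did not pass (adjusted p 0.133 in limma), although the ages did not overlap. At the same size it was called with the 6 libraries alone (0.00247) and without E18.5 binucleated replicate 1 (0.00227), and under quantile scaling it was -0.02.

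**Figure D3:**
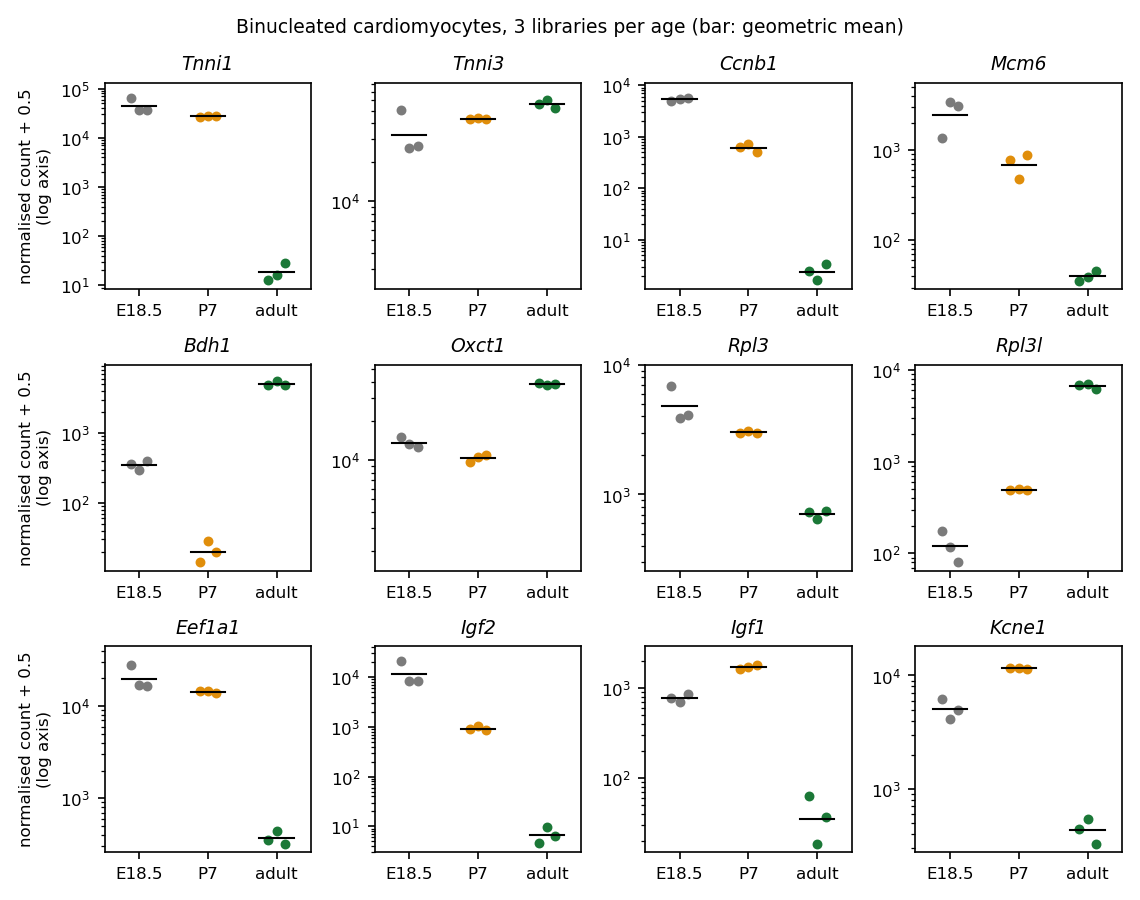
Normalised counts plus 0.5 (log axis) of 12 genes in the 3 E18.5 (grey), P7 (orange) and adult (green) binucleated libraries, with bars at the geometric means. Tnni1 is high at E18.5 and P7 and lies between 12.1 and 28.5 in the adult, and Bdh1 is lowest at P7.

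Of 20 fetal sarcomere and stress genes, 11 fell and 2 rose, with a median of -1.26. The light chains Myl4 and Myl9 fell 9.93-fold and 15.6-fold, and smooth muscle actin Acta2 fell 4.60-fold, from 10286, 10778 and 13845 to 2161, 3229 and 2252 normalised counts. Nppa, the atrial natriuretic peptide, fell from 577, 1462 and 451 to 14.2, 84.4 and 70.7 normalised counts. The 2 that rose were Acta1, skeletal actin, which went up 2.02-fold but may share reads with its close copy Actc1, and Tagln2, 2.10-fold. Myh7, the fetal myosin heavy chain, had a difference of -3.28 from E18.5 to P7. It stood at 16527, 9427 and 13069 normalised counts at P7 and 12265, 8188 and 11021 in the adult, a difference of -0.29 (SE 0.41) that was not called.

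Of 26 mature sarcomere genes, 8 rose and 2 fell, with a median of 0.25 that became -0.03 under quantile scaling. The count of rises was 13 without E18.5 binucleated replicate 1 and 5 under quantile scaling or scaling to totals. Cmya5, a scaffold at the Z-disc and junctional membrane, rose 3.77-fold, from 4022, 5101 and 4034 to 18809, 15326 and 15339 normalised counts. Xirp2 of the intercalated disc, the titin cap Tcap and the thin filament elongator Lmod2 rose 3.72-fold, 2.43-fold and 2.38-fold. Ttn, titin itself, rose 1.45-fold (adjusted p 0.0298 in limma, 0.0546 to 0.134 without P7 replicate 2 or 3 or adult replicate 1 or 2), with log2 differences of 0.18 and 0.31, not called, under quantile scaling and scaling to totals in place of 0.53, and Synpo2l, a Z-disc actin binder, fell 2.65-fold.

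A set of 25 pairs of related genes, with a member labelled the early form and its partner the adult form, summarised these exchanges. Some pairs set different channels, lamins or tissue forms side by side, such as Cacna1g with Cacna1c, Lmnb1 with Lmna and Cpt1a with Cpt1b. The counts therefore do not measure a switch between forms of the same protein alone. The early form fell in 18 pairs and rose in 3, while the adult form rose in 6 and fell in 1. In 14 pairs the early form fell and the adult form was not called. That count depends on the libraries used. Among these adult forms Tnni3 was called without E18.5 binucleated replicate 1 (adjusted p 0.00227 in limma) and Eef1a2 without P7 replicate 2 (0.000153). In 3 pairs the early form fell and the adult form rose: Rpl3 and Rpl3l, Ezh2 and Ezh1, and Ldha and Ldhb. The fall of Ldha (-0.33) was not called without any 1 of the libraries other than adult replicate 1 (adjusted p 0.0556 to 0.12 in limma) or under median centring (0.142), nor that rise of Ldhb under scaling to totals or quantiles, and the Ezh1 call had the limits given above. Other falls of an early form were Cox6a1 and Cox8a of cytochrome oxidase (2.62-fold and 2.08-fold), the brain creatine kinase Ckb (3.20-fold) and the troponin T of slow muscle Tnnt1 (2.47-fold). Rises of an adult form included Cox7a1 (2.01-fold) and the hexokinase Hk2 (2.41-fold).

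**Figure D4:**
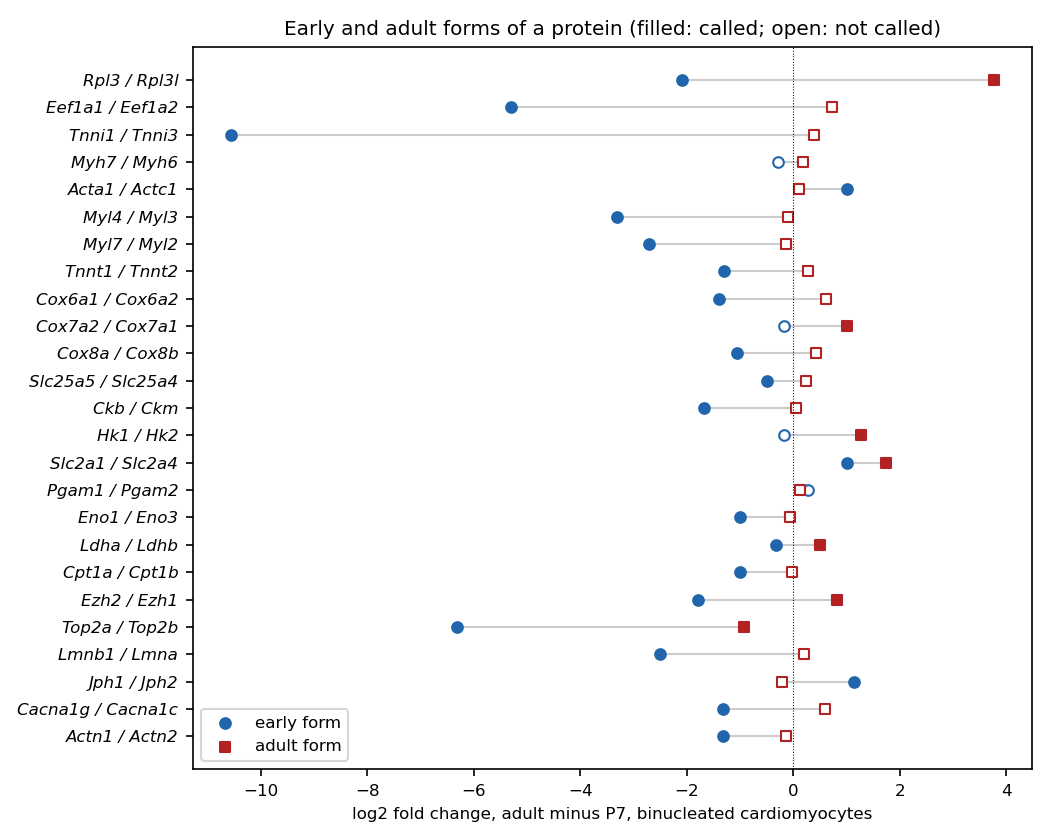
Log2 fold change (adult minus P7) of the member labelled early form (circle) and adult form (square) in 25 pairs of related genes. Symbols are filled where the gene was called and open where it was not. Most circles lie left of 0, led by Tnni1 at -10.56, and most squares lie within 1 of 0, with Rpl3l at 3.76 as the exception farthest right.

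The second exchange concerned the ribosome. Rpl3l, the striated muscle copy of ribosomal protein L3, rose from 491, 500.0 and 491 to 6912, 7068 and 6205 normalised counts, 13.6-fold (adjusted p 3.31e-09 in limma), and Rpl3 fell from 2991, 3105 and 2958 to 732, 642 and 740, 4.29-fold. Eef1a1, the general elongation factor, fell 39.4-fold, from 14698, 14681 and 13859 to 348, 436 and 322 normalised counts. Its adult muscle and neuron copy Eef1a2 stood at 347, 1677 and 282 normalised counts at P7 and 1027, 1071 and 668 in the adult. The ages overlap through P7 replicate 2 alone, and without it the log2 difference was 1.53 and was called (adjusted p 0.000153 in limma) in place of 0.72. Of 78 cytosolic ribosomal proteins 74 had differences below 0, with a median of -0.34. Among the 78, 4 fell (5.1%, beside 19.7% of all genes) and none rose. That count depended on a library outside the comparison: 41 fell without E18.5 binucleated replicate 1, 44 with the 6 libraries alone, 23 under scaling to library totals and 1 under median centring. Without any 1 of the 6 libraries it was 1 or 2. Their summed share was 0.763% to 0.878% of counts at P7 and 0.569% to 0.63% in the adult. Ribosomal protein genes and Eef1a1 have many near-identical copies in the genome, and the treatment of shared reads is unknown here, so their levels are uncertain.

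Of 34 ion channels and pumps 9 rose and 8 fell, not far from the 17.3% and 19.7% of all genes, with a median of 0.26. Kcnv2, a silent subunit that modifies delayed rectifiers, had 0 reads in the 3 P7 libraries and 417, 301 and 448 normalised counts in the adult, which is at least 404-fold higher. Kcnd2, which carries the fast transient outward current, rose 3.95-fold (344, 279 and 255 against 1247, 1082 and 1122 normalised counts). Kcnj3 of the muscarinic potassium current rose 4.39-fold. Kcna5 of the ultrarapid current rose 17.9-fold, but from 7 reads in the 3 P7 libraries together, so its fold is uncertain. It had stood at 35.9, 55.1 and 27.3 normalised counts in the E18.5 binucleated libraries. Scn4b, a sodium channel beta subunit, rose 63.8-fold, from 13.8, 44.6 and 30.9 to 2497, 1252 and 1671 normalised counts. Kcne1, the partner of the slow delayed rectifier, fell 26.8-fold, from 11574, 11707 and 11304 to 446, 543 and 328 normalised counts. Kcna4, another transient outward channel, fell 5.35-fold. The T-type calcium channels Cacna1g and Cacna1h fell 2.5-fold and 3.65-fold.

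Of 26 genes of calcium handling and T-tubules 5 rose and 4 fell, shares close to the 17.3% and 19.7% of all genes, and the median of 0.15 became negative under scaling to totals and quantiles, with 3 higher and 7 lower calls under either. Hrc, a calcium buffer of the sarcoplasmic reticulum, rose 3.47-fold, from 2862, 2695 and 2702 to 10486, 11011 and 7551 normalised counts, and Cacna2d1, the alpha 2 delta subunit of the L-type channel, rose 2.15-fold. The calstabin Fkbp1b fell 13.3-fold, from 61.3, 65.8 and 45.3 to 3.03, 4.56 and 3.93 normalised counts, and the sodium-calcium exchanger Slc8a1 fell 1.81-fold. Of 9 conduction system markers 6 fell, among them the connexin Gja5 (324, 207 and 459 against 20.2, 21.7 and 27.5 normalised counts, 13.4-fold) and Cntn2, with 374 reads at P7 and 0 in the adult, at least 113-fold lower. In adrenergic and muscarinic signalling 5 of 28 rose and 8 fell, with a share of rises close to that of all genes. The alpha 1A receptor Adra1a went from 4.32, 4.25 and 9.64 to 483, 479 and 504 normalised counts, 79.9-fold, and the muscarinic receptor Chrm2 rose 2.47-fold. Adra1a had 19 reads in the 3 P7 libraries together, so its fold is uncertain. The cyclase Adcy5 fell 3.15-fold, and the beta 1 receptor Adrb1 stood at 675, 917 and 671 normalised counts at P7 and 735, 657 and 126 in the adult, where the third library stood apart.

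Among metabolic groups the breakdown of branched-chain amino acids changed in the largest share of members: 16 of 18 rose and none fell, with a median of 1.42. Bckdha, of the rate-limiting dehydrogenase, stood at 2217, 1947 and 2403 normalised counts at P7 and 8776, 8558 and 8597 in the adult (log2 difference 1.99, SE 0.11, adjusted p 1.78e-09 in limma). The leucine pathway enzymes Ivd and Mccc2 rose 4.45-fold and 3.16-fold, and Ppm1k, the phosphatase that activates the dehydrogenase, 3.32-fold. Its opposing kinase Bckdk rose too, 1.35-fold, but was not called under scaling to totals or quantiles. From E18.5 to P7, with the same P7 libraries, the differences were -0.22 for Ivd (-0.36 without E18.5 binucleated replicate 1), -0.43 for Mccc2 and 0.79 for Bckdha.

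Of 6 genes of ketone body metabolism 2 rose (33.3%, beside 17.3% of all genes) and 1 fell (16.7%, beside 19.7%). Bdh1, the mitochondrial beta-hydroxybutyrate dehydrogenase that starts ketone use, had the largest rise among genes of at least moderate level, from 13.8, 27.6 and 19.3 to 4870, 5483 and 4877 normalised counts (log2 difference 7.99, SE 0.29, 254-fold, adjusted p 1.39e-11 in limma). It had stood at 359, 292 and 398 normalised counts at E18.5, above all 3 P7 libraries. Oxct1, the transferase of the next step, rose 3.73-fold, from 9579, 10470 and 10927 to 39050, 37980 and 38391 normalised counts.

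Of 30 genes of fatty acid uptake and oxidation 15 rose and 1 fell, with a median of 0.38 here and 1.16 from E18.5 to P7. The count was 9 under scaling to totals and 6 under quantile scaling. Lpl, the lipase that frees fatty acids from lipoproteins, rose 3.18-fold, from 37229, 31329 and 38878 to 116253, 118040 and 106361 normalised counts. Pnpla2, the triglyceride lipase within the cell, rose 2.87-fold and Cpt2, of the carnitine shuttle, 1.99-fold. Cpt1a, the liver form of the shuttle's first enzyme, fell 2.00-fold. Of 17 fatty acid-responsive PPAR targets 8 rose and 3 fell (5 and 3 under quantile scaling, 6 and 6 under scaling to totals). The uncoupler Ucp2 fell 6.35-fold, from 6145, 4594 and 5245 to 549, 1001 and 1049 normalised counts. Fabp4, a further member that rose, is also an endothelial marker.

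The citric acid cycle and pyruvate entry had 11 of 24 genes higher and none lower, with all 24 differences above 0 and a median of 0.38 that was 0.00 under quantile scaling. The count was 7 without P7 replicate 1, 4 under scaling to totals and 2 under quantile scaling. Suclg2, a succinate-CoA ligase subunit, rose 1.98-fold and the pyruvate dehydrogenase kinase Pdk2 2.02-fold. In respiratory complex I none fell and 3 of 37 rose (8.1%, beside 17.3% of all genes), among them Ndufs1 (1.31-fold) and Ndufv1 (1.24-fold). This count was 12 without E18.5 binucleated replicate 1, 17 with the 6 libraries alone, 1 under scaling to totals and 0 under quantile scaling, and 1 without any 1 of the libraries other than P7 replicate 3. Ndufs1 had an adjusted p of 0.0514 to 0.0893 in limma without any 1 of the 6, and Ndufv1 of 0.0772 to 0.12 without any 1 other than P7 replicate 3. Complex I genes made up 2.10% to 2.16% of counts at P7 and 2.10% to 2.25% in the adult, ranges that overlap.

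In glycolysis and glycogen metabolism 11 of 28 genes rose (39.3%, beside 17.3% of all genes) and 5 fell (17.9%, beside 19.7%). The insulin-responsive transporter Slc2a4 rose 3.32-fold, from 4856, 4811 and 5639 to 16204, 16454 and 18038 normalised counts, and Pfkfb1, which makes an activator of phosphofructokinase, rose 17.2-fold. The lactate exporter Slc16a3 fell 13.2-fold and the brain aldolase Aldoc 49.2-fold, from 85.5, 90.2 and 75.2 to 3.03, 0 and 1.97 normalised counts. Aldoc had 5 reads in the 3 adult libraries together, so its fold is uncertain. Under quantile scaling 6 rose and 9 fell. Of 22 genes of cholesterol synthesis 12 fell and 2 rose, with a median of -0.71: squalene epoxidase Sqle fell 8.04-fold, from 142, 329 and 221 to 28.3, 19.4 and 34.4 normalised counts. Of 24 antioxidant genes 15 rose and 1 fell. Mgst1, a membrane glutathione transferase, rose 13-fold and the quinone reductase Nqo1 2.96-fold, and the glutathione peroxidase Gpx1 fell 2.59-fold, from 4219, 4317 and 3943 to 1547, 1693 and 1573 normalised counts.

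Nuclear receptors and mitochondrial regulators had 13 of 25 members higher and 2 lower, with a median of 0.92, and 8 higher without adult replicate 2. Klf15, a glucocorticoid-induced regulator of amino acid and lipid use, rose 7.46-fold, from 348, 426 and 564 to 2706, 3944 and 3261 normalised counts. Klf9, another hormone-induced factor, rose 2.79-fold, and Fkbp5, a textbook glucocorticoid target, 4.42-fold, with 257, 554 and 206 normalised counts in the adult. Pparg, the lipid-storage PPAR, rose 25.3-fold from 2.59, 5.31 and 4.82 to 127, 107 and 110.0 normalised counts. Dio2, which makes active thyroid hormone, fell 6.96-fold, and the thyroid receptor Thra 1.70-fold, a call lost without P7 replicate 1 or 2 or adult replicate 1 or 3 (adjusted p 0.0562 to 0.195 in limma) and under median centring (0.0639).

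Clock genes moved in opposite directions. Of 21 listed, 7 rose (33.3%, beside 17.3% of all genes) and 5 fell (23.8%, beside 19.7%). The share of falls was thus near that of all genes, and 3 fell without adult replicate 3. Arntl (Bmal1), the activator, rose 5.88-fold, from 168, 174 and 139 to 733, 1226 and 924 normalised counts, and Nr1d1, a repressor, rose 5.38-fold. Per3 fell 3.58-fold, from 601, 745 and 548 to 245, 105 and 206 normalised counts, and Npas2, Hlf and Dbp fell 3.41-fold, 2.07-fold and 1.96-fold. The Dbp call was lost without P7 replicate 3 or adult replicate 2 or 3 (adjusted p 0.0556 to 0.0913 in limma) and under quantile scaling (0.0509). Ciart, a repressor of the clock activators, went from 0.863, 5.31 and 6.75 to 93.0, 93.5 and 84.5 normalised counts, 23.9-fold. That fold is uncertain, with 13 reads in the 3 P7 libraries together. The hour of collection is not in the labels and its part in these values was not tested. Clock activators bind the E-box CACGTG, and Dbp, Hlf and Nfil3 the D-box TTATGTAA. Among the 17 clock genes with a window 29.4% held the E-box, beside 12% of all measured genes with one, and only 1 of the 17, Per3, the D-box, beside 0.672%. Both strands were searched, the E-box being its own reverse complement. Ciart and Per3 are shown because they went in opposite directions and hold the one or the other box more than once, at chr3:95882259-95882358 (minus) and chr4:151044796-151044885 (minus), with matches in capitals. This choice pairs box and direction by selection, and a link between them was not tested.
Ciart: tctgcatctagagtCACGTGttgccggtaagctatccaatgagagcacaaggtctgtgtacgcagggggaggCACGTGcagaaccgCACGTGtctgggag
Per3: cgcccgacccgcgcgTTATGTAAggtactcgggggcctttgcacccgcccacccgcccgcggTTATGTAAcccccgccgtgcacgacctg

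Imprinted and fetal growth genes fell without exception among those called: 12 of 18 fell and none rose, with a median of -2.48. Igf2, the fetal insulin-like growth factor, went from 890, 1050 and 847 to 4.04, 9.12 and 5.90 normalised counts, 141-fold lower. The imprinted zinc finger Plagl1 fell 22.2-fold and Igf2bp3, an RNA-binding protein of fetal tissue, 36.4-fold. Igf1, the postnatal growth factor, fell 48.8-fold as well, from 1642, 1719 and 1797 to 62.7, 18.2 and 36.4 normalised counts, after a difference of 1.13 from E18.5 to P7. Among 31 growth factor receptors and Hippo genes 8 rose and 7 fell, not far from the shares of all genes: the neuregulin receptors Erbb2 and Erbb4 fell 2.86-fold and 1.94-fold, Tead2, a Hippo effector, fell 91.6-fold, and the growth hormone receptor Ghr rose 1.76-fold. Of 24 cardiac transcription factors 9 fell and 1 rose. Hand1 had 34 reads at P7 and 0 in the adult, at least 10.4-fold lower, Irx4 and Hey2 of the ventricle fell 2.30-fold and 3.50-fold, and Foxo3 rose 3.01-fold.

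Of 45 collagens, laminins and other matrix genes 18 fell (40%, beside 19.7% of all genes) and 11 rose (24.4%, beside 17.3%). Fbn2, the fetal fibrillin, went from 539, 960 and 678 to 0, 1.14 and 8.84 normalised counts, and Sparc, a collagen-binding matrix protein, from 5581, 7305 and 6427 to 946, 933 and 1437, 5.91-fold lower. Timp4, the cardiac metalloproteinase inhibitor, had 0 reads at P7 and 392 in the adult, at least 143-fold higher, while its relative Timp1 fell 15.8-fold. Dcn and Col5a1, which also stand in the fibroblast list, rose 10.3-fold and 8.17-fold. Of 11 fibroblast markers 3 rose (27.3%, beside 17.3% of all genes) and 2 fell (18.2%, beside 19.7%). Col1a1, the most used marker, stood at 8.63, 34.0 and 27.0 normalised counts at P7 and 17.2, 30.8 and 32.4 in the adult. The part of fibroblast RNA in the matrix values was not tested.

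Immediate early genes, which tissue digestion can induce, rose in 20 of 26 cases and fell in 1, with a median of 1.70. Ier2 went from 1004, 1092 and 699 to 4638, 6555 and 6814 normalised counts, 6.46-fold, Zfp36, a destabiliser of inflammatory mRNAs, rose 10-fold and Egr2 41.8-fold. The Egr2 fold is uncertain, with 17 reads in the 3 P7 libraries together. Fos stood at 14518, 13928 and 4389 normalised counts at P7 and 19926, 32415 and 27739 in the adult, 2.72-fold higher, and its call was lost without P7 replicate 3 or adult replicate 2 or 3 (adjusted p 0.0603 to 0.139 in limma), under quantile scaling (0.143) and under scaling to totals (0.056). In Ier2, Zfp36 and Fos the third P7 library was the lowest. The part of cell isolation in these values was not tested. Of 15 heat shock proteins and chaperones of muscle 10 rose and none fell, led by the small heat shock proteins Hspb6 (3.28-fold) and Hspb8 (3.07-fold) and their partner Bag3 (2.84-fold). The stress-induced Hspa1b, listed with the immediate early genes, fell 1.97-fold, with 325, 838 and 501 normalised counts at P7 and 209, 299 and 286 in the adult, and its adjusted p was 0.0654 to 0.235 in limma without any 1 of the libraries other than P7 replicate 1, and 0.0809 under quantile scaling. Hspa1a is a near-identical copy, so both levels are uncertain. Of 20 ubiquitin ligases and autophagy genes 10 rose and 1 fell. Trim54, a ligase of the sarcomere, rose 10.8-fold, from 679, 398 and 624 to 5866, 5854 and 6261 normalised counts, and the mitophagy genes Pink1 and Bnip3 rose 3.08-fold and 2.83-fold. Trim55, a relative of Trim54, fell 2.71-fold.

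Class I antigen presentation genes rose in 8 of 15 cases and fell in 1, with a median of 1.32. H2-D1 went from 158, 143 and 182 to 995, 745 and 821 normalised counts, 5.27-fold, the peptide transporter Tap2 rose 5.36-fold and the light chain B2m 2.5-fold. H2 class I genes have close copies and are uncertain. Of 23 interferon response genes 10 rose and 1 fell, with a median of 1.34: Ifitm3 rose 22.6-fold, from 12.95, 3.18 and 4.82 to 132, 148 and 153 normalised counts, and Irf1 8.05-fold, while Ifit2 fell 3.18-fold. That count of rises was 5 without adult replicate 1 and 6 without P7 replicate 1, P7 replicate 3 or adult replicate 3. The interferon-stimulated response element, searched on both strands, was in 57.9% of the 19 interferon genes and 38.5% of the 13 class I genes with a window, beside 3.43% of all measured genes with one. Endothelial and leukocyte markers moved in the same direction. The summed atrial, conduction, fibroblast and erythroid markers were lower in the adult, as given above, although the median difference of the fibroblast list was 0.82. Of 16 endothelial markers 13 rose and none fell, with a median of 3.10 and summed levels of 405 to 415 normalised counts at P7 and 2646 to 3243 in the adult. Flt1 and Kdr, the VEGF receptors, rose 30.5-fold and 21.6-fold. Flt1 had 13 reads in the 3 P7 libraries together, so its fold is uncertain. Of 8 leukocyte markers 5 rose, with sums of 46 to 90 and 246 to 326 normalised counts. Cd74 went from 2.59, 2.12 and 0 to 129, 50.2 and 101, and C1qc from 0 reads to 51, at least 18.2-fold higher. In single P7 libraries up to 1 endothelial and 3 leukocyte markers were at 0, and none was in the adult. The part of these cells in the class I and interferon values was not tested.

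By size of change alone, the genes of at least moderate level that rose most included, after Bdh1, Ces1d, Scn4b, Rhbdl3, Mal, Kdr, Aox1, Csdc2 and Cp. Ces1d, a carboxylesterase, stood at 30.2, 55.2 and 84.8 normalised counts at P7 and at 6829, 8002 and 8604 in the adult, 148-fold. Cp, the copper-binding ferroxidase ceruloplasmin, rose 18.7-fold and the aldehyde oxidase Aox1 21.1-fold. After Tnni1, those that fell most were Vcam1, Igf1, Bex3, Eef1a1, Tmsb10, Cited1, Ube2c, Lpar3 and Sntb1. Vcam1, an adhesion molecule of embryonic cardiomyocytes, went from 1187, 1356 and 1350 to 22.2, 18.2 and 31.4 normalised counts, 54.2-fold, and Lpar3, a lysophosphatidic acid receptor, from 1177, 1154 and 1077 to 31.3, 38.8 and 32.4, 32.9-fold. Sntb1, a syntrophin of the dystrophin complex, fell 32.2-fold, while the sarcoglycan Sgca of the same complex rose 2.12-fold.

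The same age step was measured in mononucleated cells, where 4993 genes (41.4%) were called. Of the binucleated calls 85.9% were called in the same direction there, and of the mononucleated calls 76.7%: 1795 genes rose and 2036 fell in both classes, and 2 took opposite directions. The test of the difference between the classes called 25 genes (0.208%), all with a more positive change in binucleated cells. With same-numbered libraries of an age kept together as a block, which the numbers bear out within each age, 101 genes (0.838%) were called, 90 with a more positive change and 11 with a more negative one. The count of 25 was 102 without E18.5 binucleated replicate 1, 4 without P7 binucleated replicate 1, 0 without replicate 2 and 9 without replicate 3. It was 23, 12 and 7 without adult binucleated replicate 1, 2 and 3. At an unadjusted p under 0.05 it was 568.

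Replication genes made up 8 of the 25, and 17 of the 101, with 49 of the 12048 measured genes on that list. Over the replication list the median difference was -1.28 in binucleated and -3.08 in mononucleated cells, and over the mitotic list -5.40 and -5.97. Mcm7, a helicase subunit, stood at 2082, 2740 and 2913 normalised counts in P7 mononucleated and 541, 353 and 681 in P7 binucleated libraries. In the adult it stood at 167, 240.1 and 150 in mononucleated and 150, 178 and 189 in binucleated libraries. The classes thus differed at P7 and overlapped in the adult, and the difference of their changes was 2.24 (SE 0.39, adjusted p 0.029 in limma). Ccne2, the cyclin of S phase entry, had 1055, 1553 and 1646 normalised counts in mononucleated and 206, 130 and 237 in binucleated P7 libraries. Its adult values of 94.8, 108.8 and 117 and of 58.6, 63.9 and 75.7 did not overlap either, and the difference of the changes was 2.21 (SE 0.34, adjusted p 0.016 in limma). Rpa2, which coats single-stranded DNA, stood at 508, 376 and 552 normalised counts in P7 and 546, 577 and 583 in adult binucleated libraries, which overlap, and fell in mononucleated cells by 1.52 on the log2 scale.

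**Figure D5:**
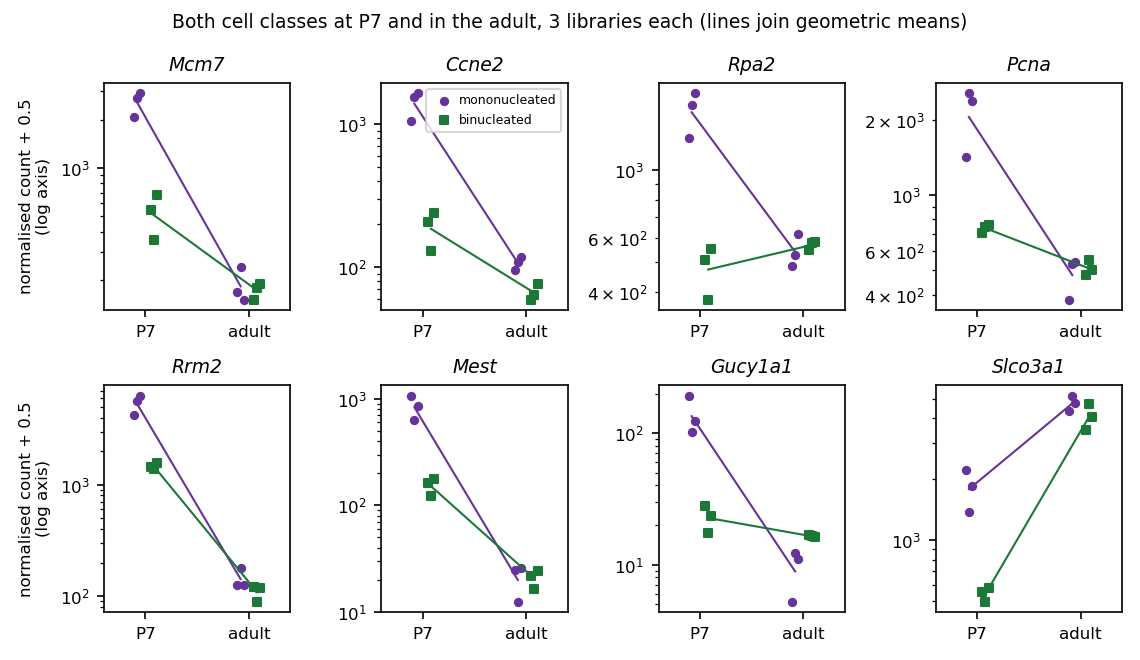
Normalised counts plus 0.5 (log axis) of 8 genes whose age change differed between mononucleated (purple circles) and binucleated (green squares) cells, 3 libraries per group, with lines joining geometric means. At P7 the 3 mononucleated libraries lie above the 3 binucleated libraries in each gene, and in the adult the classes overlap or lie close together, with the binucleated libraries higher in Gucy1a1.

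The other called differences were not all of the cell cycle. Mest, an imprinted gene, stood at 161, 122 and 175 normalised counts in P7 and 21.2, 15.96 and 23.6 in adult binucleated libraries, 7.38-fold lower, beside 1073, 636 and 850 in P7 and 24.4, 11.8 and 25.1 in adult mononucleated libraries. Gucy1a1, a subunit of the nitric oxide receptor, had a log2 difference of -0.46 (SE 0.35) in binucleated and -3.92 in mononucleated cells. Wdr90, a protein of centrioles, fell 2.04-fold in binucleated cells (adjusted p 0.0323 in limma, 0.0711 to 0.113 without any 1 of the libraries other than adult replicate 2, and 0.135 under quantile scaling), and its difference was -4.32 in mononucleated cells. Slco3a1, an organic anion transporter, rose in both classes, from 553, 494 and 581 to 3486, 4682 and 4073 normalised counts in binucleated libraries (7.48-fold), with differences of 2.90 and 1.41.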

How the data were processed

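RNA of sorted cells was made into libraries with Illumina TruSeq stranded mRNA and Clontech SMARTer amplification kits, per the labels' protocols. STAR, limma and the mouse build mm9 are named in the submitters' processing notes; the sources used here do not give their versions, the counter or the annotation. The authors deposited 1 table of log2 values per library, with no counts. Each value was found to be the log2 of a whole count plus 0.5 times 1 factor per library: 100% of values came out whole within 0.001, which gave the counts used for depth and display. Normalised counts are these counts scaled by the deposited factor.

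Adult minus P7 differences come from limma 3.58.1 in R 4.3.3 on the deposited log2 values, with 6 group means over all 18 libraries (12 residual degrees of freedom), an intensity trend, two-sided tests and Benjamini-Hochberg adjustment over 12048 genes at 0.05. The spread is thus shared with E18.5, so genes variable there, such as Scn4b and Kdr, have large standard errors. The script was checked on simulated data. Symbols came from GENCODE M21 for 11927 gene IDs, and 121 had none. Nothing in the labels ties a replicate to its own animal. The p-values therefore reflect the spread between these libraries, which may be technical. Counting without molecular identifiers means that depth covers counting error only, and a group at 0 was set against a floor of 3 counts over its 3 libraries.

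The members, the 41 pathway and 10 cell type lists (1084 measured genes) and the tests were chosen with earlier results of these data known. Genes named were the 10 per direction with the largest change among called, non-overlapping genes in the upper 75% by mean level, called "at least moderate level" in the text, up to 4 per list and direction by adjusted p, the isoform pairs, up to 6 differing between classes, and classic members of a list. Sgo2a, Cdk1, Mcm5, Cdc6, Kcna5, Bckdk, Fos, Pcna, Flt1 and some others were added after their values were seen. Same-numbered libraries of the 2 classes deviated together within an age (correlations 0.18, 0.19 and 0.24 at P7 and 0.26, 0.26 and 0.33 in the adult), which is why the block is printed for the class difference. Alternatives were other library sets, each library left out, blocks, scalings, spread models, voom on recovered counts and a filter of 100 counts in 3 libraries. Some genes that these rules name are not reported here.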

Additional observations from a re-analysis of the deposited data

Results flagged for a closer look

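The change from P7 to the adult differed between binucleated and mononucleated cells in 25 genes by the test of the difference itself in limma. The values below are the binucleated minus the mononucleated log2 change, and all are positive. The 25 genes are grouped here by function and not by the lists used above, of which the replication list held 8. Among replication and S phase genes the values were 4.6 for Lrr1, 3.42 for Brip1, 2.37 for Gins3, 2.24 for Mcm7, 2.21 for Ccne2, 2.18 for Ccne1, 2.04 for Cdc45, 1.79 for Dck, 1.78 for Rpa2, 1.64 for Pold1, 1.57 for Rfc4, 1.57 for Pcna, 1.47 for Rrm2 and 1.15 for Dnajc9. Among genes of mitosis and centrosomes they were 4.29 for Haspin, 3.4 for Pimreg, 3.29 for Wdr90 and 1.65 for Haus5. The remaining genes were Gas7 with 4.97, Gucy1a1 with 3.46, Mtfr2 with 2.62, Mest with 2.5, Jpt2 with 1.6, Slco3a1 with 1.5 and Mcam with 1.41. Of these, Gas7 had 2 reads in all 3 P7 binucleated libraries together, so its value rests on very few reads. With same-numbered libraries of an age kept together as a block, 20 of the 25 remained called and the other 5 did not: Cdc45 (adjusted p 0.0524 in limma), Lrr1 (0.0529), Pimreg (0.0755), Gas7 (0.0797) and Haspin (0.0879).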

How the results depend on the processing

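The number of genes called between adult and P7 binucleated cells stayed within 1.5 times of 4461 in every alternative run: it was 6156 with only the 6 libraries, 6061 without E18.5 binucleated replicate 1, 6486 with array weights and 3693 to 3887 without any 1 of the 6 libraries. Same-numbered libraries of P7 and adult binucleated cells did not all deviate together (correlations 0.00, 0.09 and 0.14, beside -0.12 to 0.04 for unlike numbers). These weak values do not settle whether the numbers pair the ages. With the replicate block the calls numbered 4345 over 18 libraries and 6250 over 12. The 25 genes that differed between classes were the least stable count. It was 102 without E18.5 binucleated replicate 1, 0 to 23 without any 1 of the 6 binucleated libraries, 15 with the replicate block over 18 libraries, 101 with the replicate block within age, 16 under median centring, 42 under scaling to library totals, 233 with array weights and 1 with voom. Of the called genes named, 168 kept the call in every alternative and 11 lost it without 1 of the 6 libraries. Among all named genes, called or not, signs turned for Ndufv1 (-0.07) and Tnni3 (-0.02) under quantile scaling. They also turned for Actc1 (-0.12) and Lmna (-0.01) under scaling to library totals. Col1a1 turned without P7 binucleated replicate 1 (-0.23 to 0.74 over the libraries left out). Of these genes only Ndufv1 had been called. The cause was not tested. Scaling to library totals and leaving E18.5 binucleated replicate 1 out of the E18.5 to P7 values were added after seeing the data.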

Other observations

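One stretch of the X chromosome, in RefSeq gene order (GRCm38.p6) from Armcx4 to Tceal1, was picked out after its values were seen. It holds the Armcx, Bex and Tceal families, small or armadillo-repeat proteins that arose by duplication. Of its 21 measured genes 19 fell and none rose in adult binucleated cells, with a median log2 difference of -3.33. The exceptions were Zmat1 (0.51) and Gprasp1 (-0.63), which were not called, though both were with the 6 libraries alone (adjusted p 0.0307 and 0.00385 in limma) and without E18.5 binucleated replicate 1 (0.0342 and 0.00384). Over the other 380 measured X genes 130 fell and 45 rose, with a median of -0.34. Armcx2, a mitochondrial outer membrane protein family member, went from 514, 587 and 375 normalised counts at P7 to 15.2, 7.98 and 14.7 in the adult, 38.2-fold lower. Bex1 fell 18.8-fold, and Tceal8 fell from 2362, 2575 and 2549 to 363, 471 and 350 normalised counts. Bex4 had reads at P7 and 0 in the adult, at least 224-fold lower. Reads shared between family members could not be told apart.

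Some further families, also chosen after their values were seen, changed in several members. All 4 measured ADP-ribosyltransferases of the Art1 to Art5 group rose, with a median of 2.82, and Art1, a muscle cell-surface enzyme, went from 392, 380 and 431 to 6888, 7182 and 7420 normalised counts, 17.9-fold. Of 20 glutathione S-transferases 9 rose and none fell. Gstm1 rose 15.2-fold, but its near-identical copies make that level uncertain. Of 12 alpha and beta tubulins 5 fell and 3 rose, beside 19.7% and 17.3% of all genes. Tuba1a went from 3437, 4306 and 2951 to 190, 203 and 200 normalised counts, while Tuba4a and Tuba8 rose 4.02-fold and 4.07-fold. Of 11 septins, filament proteins of the cell cortex and the cleavage furrow, 5 fell and 1 rose, beside 19.7% and 17.3% of all genes. Sept6 went from 971, 947 and 1005 to 69.7, 58.2 and 63.9 normalised counts, 15.2-fold lower, and Sept9 rose.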
